A study of Rattus norvegicus with 16 samples.

Results

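The 10 genes described here encode the proteins that turn long-chain fatty acids into acyl-CoA and carry them into mitochondria on carnitine, with the pair of enzymes that set malonyl-CoA. They were taken by symbol (Acsl1, Acsl3, Acsl6, Cpt1a, Cpt1b, Cpt2, Crat, Slc22a5, Mlycd and Acacb) from 31141 genes of a rat muscle RNA table, and each matched 1 row. All 10 were among the 12119 genes that passed a filter on low values and entered the tests. The libraries came from frozen tibialis anterior, a limb muscle, of Wistar-Imamichi rats. There were 4 wild-type libraries on normal diet (WT_ND), 6 libraries of the genotype labelled Dmd on normal diet (DMD_ND) and 6 of that genotype on MCTKD (DMD_KD). Feeding started at weaning and lasted until 9 months of age, and no wild-type library on MCTKD is among the samples. Dmd encodes dystrophin, whose loss causes Duchenne muscular dystrophy. MCTKD is not spelled out in the labels and stands in this study for a ketogenic diet rich in medium-chain triglycerides. The Dmd allele and the sex of the animals are not named. Nothing states that each library is a separate animal, so p-values measure the spread between these libraries, which may be partly technical.

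A long-chain fatty acid cannot cross the inner mitochondrial membrane by itself. Acyl-CoA synthetases of the Acsl family first attach coenzyme A to it, CPT1 on the outer membrane swaps coenzyme A for carnitine, a carrier moves the acylcarnitine inward, and CPT2 on the inner membrane restores acyl-CoA for beta-oxidation. Malonyl-CoA blocks CPT1, and muscle makes it with Acacb and breaks it down with Mlycd. Medium-chain fatty acids depend less on this shuttle than long-chain ones.

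Values are FPKM as deposited, per kilobase of gene and so comparable between genes. They are not per assigned reads: the library size that each value was divided by was 10941851 to 18695561 in WT_ND, below the assigned reads in 4 of 4 libraries, and 20269571 to 28007942 in DMD_ND, above them in 6 of 6. In DMD_KD it was above them in 5 of 6 and below them in replicate 3. Setting each library to an equal total (TPM) removes this factor, and results are given on both where they differ. Assigned reads numbered from 17125084 to 28116085 per library. Log2 fold changes are differences of mean log2(FPKM + 1), a scale on which changes of scarce genes such as Cpt1a come out too small. A gene was called at a limma adjusted p under 0.05 over all tested genes. Muscle identity held in every library: the skeletal actin gene Acta1 stood between 10939 and 51206 FPKM and the muscle creatine kinase gene Ckm between 2941 and 27005. DMD_KD replicate 3 stood apart, with a summed level of 8 myofibre markers of 95173 FPKM against 30017 to 44964 in the other DMD_KD libraries, and results that rest on it are also given without it.

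The promoters of the 3 acyl-CoA synthetase genes are shown because the genes moved in opposite directions in mutant muscle. Each run is the 100 bases before the RefSeq start in the GRCr8 build, in the gene's sense, taken from chr16:52532393-52532492 (minus strand) for Acsl1, chr9:87563501-87563600 (plus strand) for Acsl3 and chr10:38952061-38952160 (plus strand) for Acsl6.
Acsl1: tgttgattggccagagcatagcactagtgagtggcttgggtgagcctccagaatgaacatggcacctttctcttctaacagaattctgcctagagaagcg
Acsl3: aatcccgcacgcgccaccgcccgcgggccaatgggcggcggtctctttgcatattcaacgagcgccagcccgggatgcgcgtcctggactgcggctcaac
Acsl6: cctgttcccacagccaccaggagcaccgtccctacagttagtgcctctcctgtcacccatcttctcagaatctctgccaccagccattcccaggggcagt
Acsl3, the gene that was higher in mutant muscle, had 14 CpG pairs in this stretch, whereas Acsl1 and Acsl6, which were lower, had 1 each. Over the full window of 300 bases (250 before to 50 after the start), CpG pairs numbered 39 in Acsl3, 4 in Acsl1 and 3 in Acsl6, beside a median of 7 over 33469 RefSeq promoters. The split did not hold across the other genes: Slc22a5 had 35 and Cpt2 31, and both were lower in mutant muscle, while Cpt1a had 12.

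A second set of sequences shows matches to the longer motifs that nuclear receptors of fat oxidation bind. The windows of 9 of the 10 genes (Cpt1b had no entry) were searched on both strands for AGGTCA repeated after 1 spacer base, with at most 2 mismatches, the element that PPAR and RXR receptors bind. They were also searched for the element of estrogen-related receptors, which is the same AGGTCA directly preceded by TCA, with at most 1 mismatch. The elements can therefore overlap. Capitals mark the match.
Crat: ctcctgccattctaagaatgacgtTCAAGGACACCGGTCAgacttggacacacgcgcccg
Acacb: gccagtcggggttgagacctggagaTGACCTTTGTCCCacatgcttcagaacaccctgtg
The Crat run is chr3:34087290-34087349 and the Acacb run chr12:48138335-48138394, both on the minus strand of GRCr8. In Crat the capitals cover overlapping matches to both elements, and in Acacb a match to the repeat that reads on the opposite strand. The repeat was found in 2 of the 9 genes beside 3.77% of all promoters, the estrogen-related receptor element in 1 beside 7.29%, and an exact AGGTCA in 1 (Acacb) beside 16.2%. Acacb held it within the match shown and again across its start, outside the run shown. A match describes letters only and is not evidence of binding.

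In wild-type muscle the 10 genes differed widely in level. Crat, which buffers acetyl-CoA as acetylcarnitine, was highest at 259.7 ± 62.8 FPKM (SD, n = 4), 33.1% of the summed FPKM of the 10, and Cpt1a, the liver isoform of CPT1, was lowest at 1.99 ± 0.462. Between them came Cpt1b, the muscle isoform (138 ± 24.5), Acsl1 (134 ± 17.5), Cpt2 (70.1 ± 15.4), Acsl6 (69.0 ± 9.09), Mlycd (56.6 ± 8.30), Acacb (34.4 ± 3.59), the carnitine transporter Slc22a5 (13 ± 2.56) and Acsl3 (6.87 ± 0.161). Cpt1b and Acsl1 overlapped from library to library, as did Cpt2, Acsl6 and Mlycd, while the other neighbours in this order did not overlap. In DMD_ND the order was the same down to Mlycd. There Crat (68.7 ± 9.52, n = 6) and Cpt1b (65.2 ± 6.92) overlapped in range, and Acsl3 (14.9 ± 1.94) stood above Acacb (12.1 ± 1.92) with overlapping ranges.

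**Figure D1:**
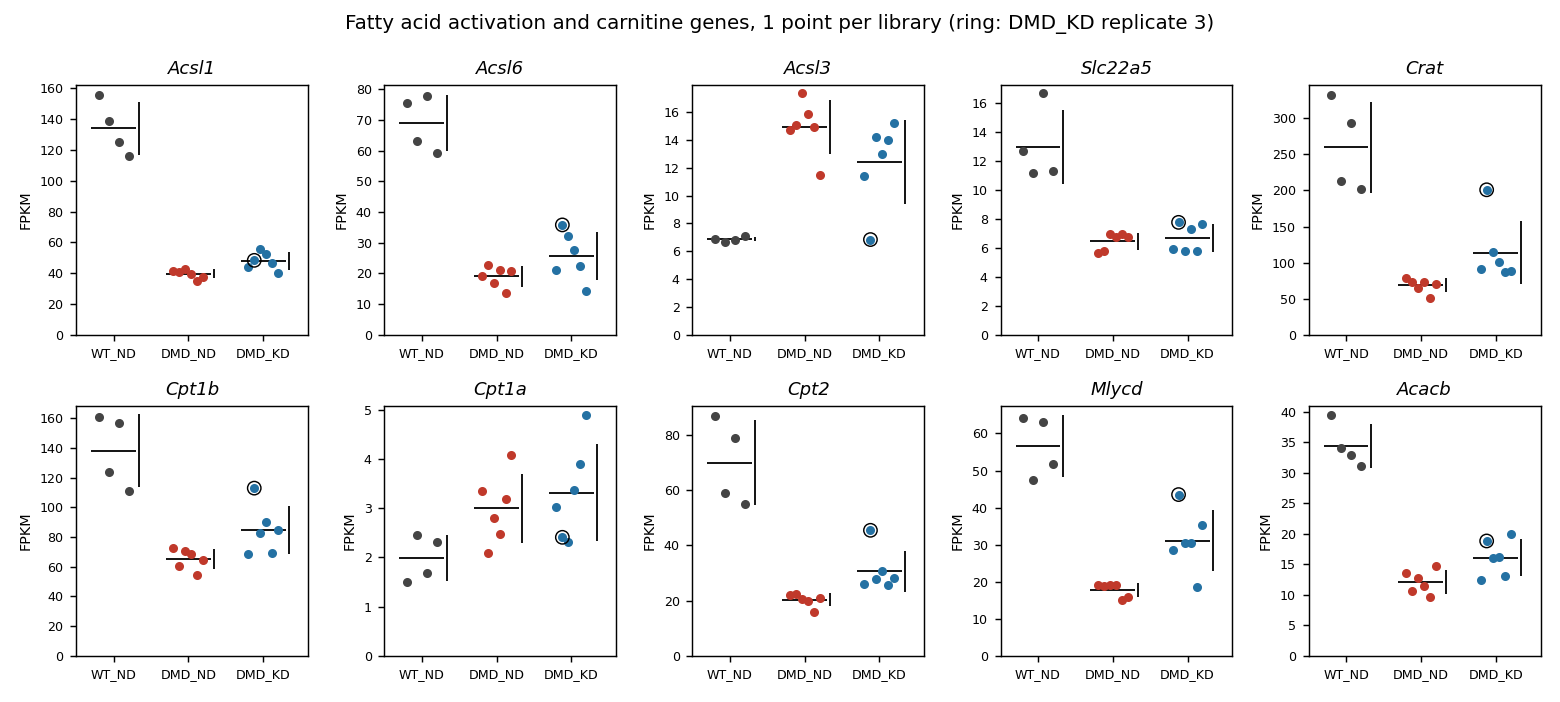
FPKM of each gene in each library (vertical axes, linear from 0) by group: WT_ND, DMD_ND and DMD_KD, with the mean as a bar and 1 SD as a line. Points of WT_ND lie above both mutant groups for 7 genes, Cpt1b overlaps them only at DMD_KD replicate 3, Acsl3 and Cpt1a go the other way, and the ringed DMD_KD replicate 3 is the highest DMD_KD library for Crat at 201 FPKM and Cpt2 at 45.5.

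The first comparison, DMD_ND against WT_ND, asks how the Dmd mutation changed this route in muscle on normal diet. Of the 10 genes 8 fell and 2 rose. The background is large, since 34.3% of all tested genes were called lower and 31.5% higher. The genes that fell were the 8 most abundant of the 10 in wild type: Acsl1, Acsl6, Slc22a5, Crat, Cpt1b, Cpt2, Mlycd and Acacb. Those that rose, Acsl3 and Cpt1a, were the least abundant in wild type. The median log2 fold change of the 10 was -1.52, beside -0.04 over all tested genes. For all 8 genes that fell, every DMD_ND library lay below every WT_ND library, which held for 28.3% of tested genes in that direction, and Acsl3 was separated the other way, as were 26.8% of genes.

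Among the synthetases, Acsl1 (ENSRNOG00000010633, chromosome 16, 45755254 to 45821541, in the mRatBN7.2 build as the deposited table gives it), the main long-chain synthetase of oxidative tissues, stood at 156, 139, 125 and 116 FPKM in the WT_ND libraries. In DMD_ND it ranged from 35.0 through a median of 40.3 to 42.9, with every library far below the lowest wild-type one (log2 fold change -1.73, SE 0.12, limma adjusted p = 2.20e-09). Acsl6 (ENSRNOG00000026745, chromosome 10, 38440080 to 38498757), first known as a brain synthetase, stood at 75.6, 63.2, 77.9 and 59.4 FPKM in WT_ND. It ranged from 13.7 through 20 to 22.7 in DMD_ND (log2 fold change -1.82, SE 0.20, adjusted p = 7.61e-07). Their balance was not distinguishable between the groups: the log2 ratio of Acsl6 to Acsl1 within a library differed by -0.09 between the groups (exact permutation p = 0.533), within the spread between libraries (SD 0.22 in DMD_ND, n = 6).

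Acsl3 (ENSRNOG00000014718, chromosome 9, 80115112 to 80164627), a synthetase of the endoplasmic reticulum and lipid droplets, moved the other way. The WT_ND libraries lay close together at 6.89, 6.68, 6.84 and 7.07 FPKM, whereas DMD_ND ranged from 11.5 through 15.0 to 17.4 (log2 fold change 1.01, SE 0.16, limma adjusted p = 4.22e-05). Acsl3 therefore made up 2.89 to 3.87% of the summed FPKM of the 3 synthetases in WT_ND and 16.4 to 23.4% in DMD_ND. The log2 ratio of Acsl3 to Acsl1, which does not depend on how libraries are scaled to each other beyond the added 1, was 2.74 higher in DMD_ND (exact permutation p = 0.00476, the smallest the 210 relabellings can give, adjusted p = 0.0190 over 12 ratio tests).

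Carnitine uptake and exchange genes were lower as deposited. Under TPM Crat kept its fall (-0.88) and Slc22a5 did not (0.02, limma adjusted p = 0.893). Slc22a5 (ENSRNOG00000008432, chromosome 10, 38008311 to 38035309), which encodes the sodium-dependent carnitine transporter OCTN2, stood at 12.7, 11.2, 16.7 and 11.3 FPKM in WT_ND. In DMD_ND it ranged from 5.62 through 6.73 to 6.95 (log2 fold change -0.89, SE 0.12, limma adjusted p = 6.05e-06), the smallest fall of the 8. Crat (ENSRNOG00000018145, chromosome 3, 13675684 to 13689255) fell the most. It stood at 332, 213, 293 and 202 FPKM in WT_ND and ranged from 51.3 through 72.0 to 78.0 in DMD_ND (log2 fold change -1.88, SE 0.22, adjusted p = 9.97e-07). No more than 1.02% of tested genes had a log2 fold change as low.

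The CPT genes did not change together. Cpt1b (ENSRNOG00000010438, chromosome 7, 120491354 to 120500404) stood at 161, 124, 157 and 111 FPKM in WT_ND and between 54.1 and 72.8, median 66.4, in DMD_ND (log2 fold change -1.07, SE 0.15, limma adjusted p = 9.79e-06). Cpt2 (ENSRNOG00000012443, chromosome 5, 122664677 to 122682095), the next transferase in the shuttle, fell further, from 87.0, 59.0, 79.1 and 55.2 FPKM to between 16 and 22.5, median 20.8 (log2 fold change -1.72, SE 0.16, adjusted p = 1.25e-07). Both were separated from wild type as deposited. Under TPM Cpt1b had -0.06 (limma adjusted p = 0.598) and Cpt2 -0.74 (adjusted p = 9.43e-07). The difference between the falls of Cpt1b and Cpt2 was not tested. Cpt1a (ENSRNOG00000014254, chromosome 1, 200565613 to 200627055) stood at 1.51, 2.45, 1.69 and 2.31 FPKM in WT_ND, from 69 to 192 reads per library, and ranged from 2.09 through 2.99 to 4.08 in DMD_ND. The groups overlapped, and the rise was small as deposited (log2 fold change 0.41, SE 0.17, adjusted p = 0.0385). Under TPM, where the median tested gene stood at 0.83, it was 1.27 (SE 0.28, limma adjusted p = 6.86e-04). Relative to the median gene, Cpt1a was at 0.45 as deposited and 0.44 under TPM. The deposited rise did not pass when any of 6 single libraries was left out (WT_ND replicates 1 and 4, DMD_ND replicates 3, 6, 9 and 11). Adjusted p was up to 0.125 there and between 6.86e-04 and 0.148 over all 24 alternatives. The share of Cpt1a in the summed FPKM of Cpt1a and Cpt1b did separate the groups. It was 0.925, 1.94, 1.06 and 2.03% in WT_ND and 3.32 to 5.95% in DMD_ND, without overlap. The log2 ratio of Cpt1a to Cpt1b was 1.48 higher in DMD_ND (exact permutation p = 0.00476, adjusted p = 0.0190).

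Both malonyl-CoA genes were lower. Mlycd (ENSRNOG00000014522, chromosome 19, 47447970 to 47463793) stood at 64.2, 47.5, 63.0 and 51.7 FPKM in WT_ND and between 15.0 and 19.2, median 19.0, in DMD_ND (log2 fold change -1.61, SE 0.17, limma adjusted p = 4.83e-07). Acacb (ENSRNOG00000000658, chromosome 12, 42366548 to 42457655), the acetyl-CoA carboxylase of the outer mitochondrial membrane, stood at 39.4, 34, 32.9 and 31.1 FPKM and between 9.60 and 14.7, median 12.1 (log2 fold change -1.44, SE 0.14, adjusted p = 1.65e-07). Transcripts of the enzyme that makes malonyl-CoA and of the one that breaks it down thus both fell. The ratio of Mlycd to Acacb FPKM was 1.65 ± 0.214 (SD, n = 4) in WT_ND and 1.5 ± 0.245 (n = 6) in DMD_ND. The log2 ratio of Acacb to Mlycd was 0.17 higher in DMD_ND (exact permutation p = 0.281), less than the spread between DMD_ND libraries (SD 0.24).

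The size of these falls and rises depends on scaling. Under TPM, the median tested gene moved to 0.83 on the log2 scale, and the all-gene calls became 8564 higher and 720 lower. On that scale 6 of the 10 fell and 2 rose. Cpt1b (-0.06, limma adjusted p = 0.598) lost its call, and Slc22a5 lost its call and its direction (0.02, adjusted p = 0.893). All 8 genes that fell as deposited lay below the median gene on either scale, Cpt1b at -1.03 relative to it as deposited and -0.89 under TPM, and Slc22a5 at -0.85 and -0.80.

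**Figure D2:**
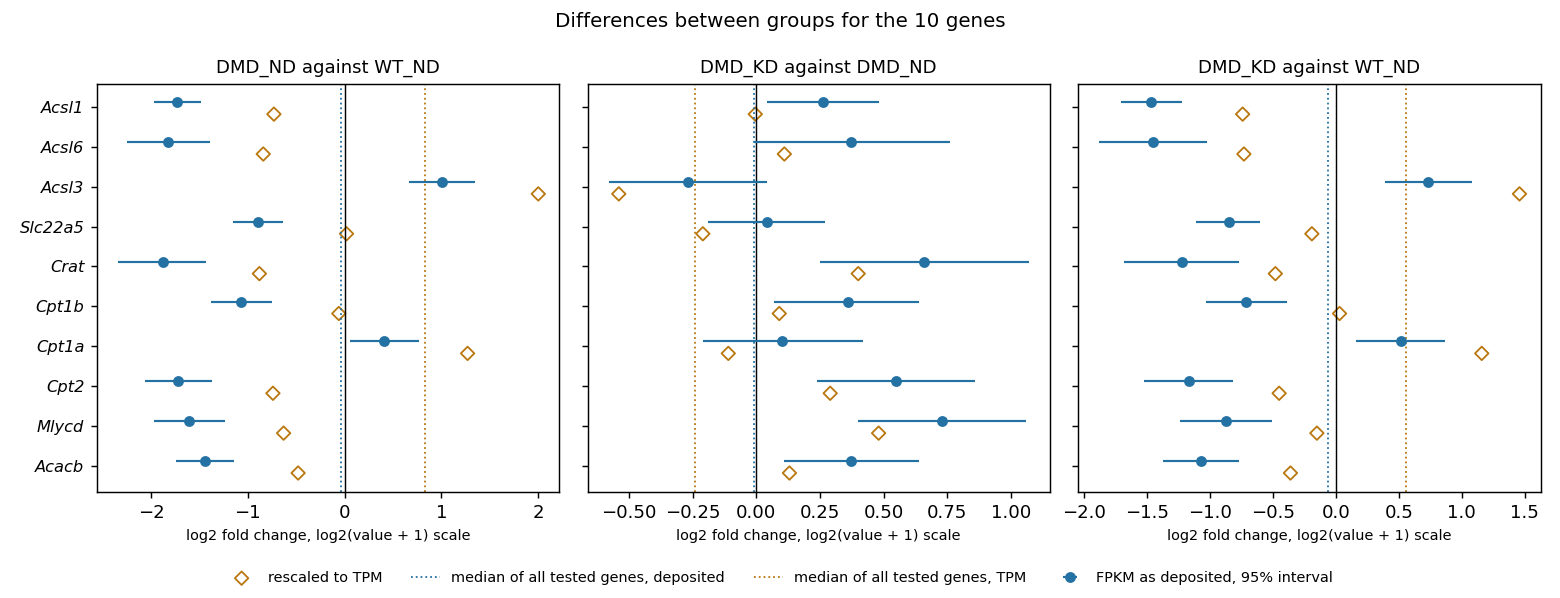
Log2 fold changes of the 10 genes (horizontal axes, log2(value + 1) scale) in the 3 comparisons, with 95% intervals for the deposited FPKM (filled) and the value after rescaling to TPM (open). Dotted lines mark the median tested gene on each scale, at -0.04 and 0.83 in DMD_ND against WT_ND, and the lower 8 genes lie left of the line of their own scale there.

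Other cell types changed with genotype. In bulk muscle, fewer cells of a type and less RNA per cell cannot be told apart. The summed level of the 8 myofibre markers was 60015 to 110999 FPKM in WT_ND and 21159.9 to 37728 in DMD_ND, and all 8 were called lower (median log2 fold change -1.44). Under TPM 4 of the 8 were called lower (median -0.43). The 13 macrophage markers summed to 27.9 to 70.1 FPKM in WT_ND and 453 to 878 in DMD_ND, and the 10 fibroblast and progenitor markers to 103 to 256 and 1618 to 2543. All 23 were called higher. The 9 adipocyte markers summed to 12.5 to 38.0 FPKM in WT_ND and 122 to 519 in DMD_ND, with all 7 tested ones higher. Endothelial markers summed to 59.9 to 80.8 and 51.2 to 71.7 FPKM. Of 7 tested, 2 were called lower as deposited (median -0.07), whereas 5 were called higher under TPM (median 0.89). No defining marker of these lists was at 0 throughout, and the part of cell makeup in the changes of the 10 genes was not tested.

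**Figure D3:**
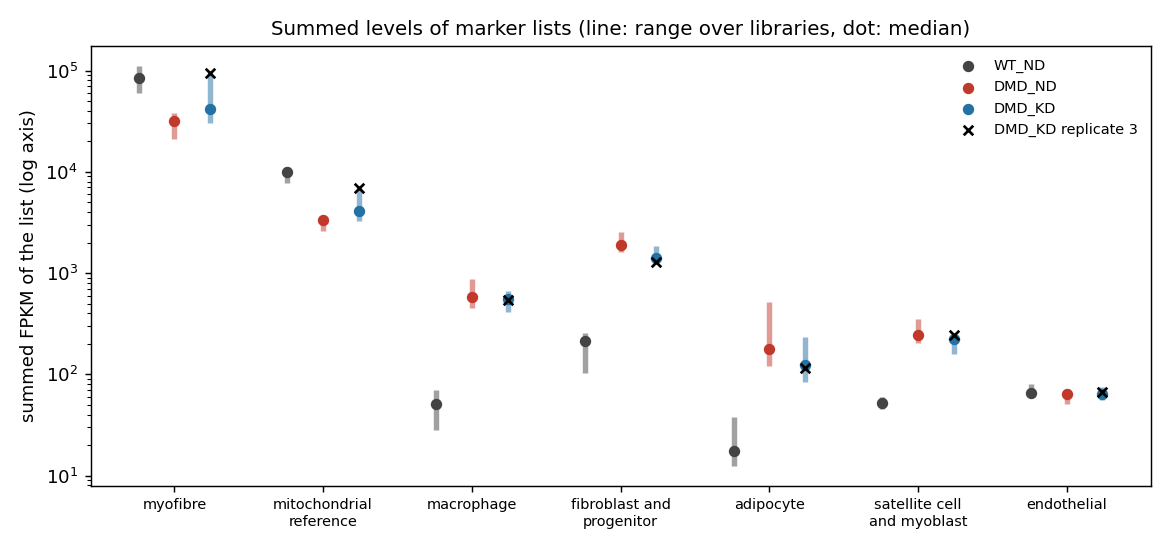
Summed FPKM of marker lists (vertical log axis) by group, with the range over libraries as a line, the median as a dot and DMD_KD replicate 3 as a cross. Macrophage, fibroblast and adipocyte sums do not overlap between WT_ND and the mutant groups, and the myofibre sum of DMD_KD replicate 3 (95173) lies within the WT_ND range.

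The rest of the pathway gave a mixed picture. Among 8 other carnitine genes with a row, 6 were tested, of which 3 fell and 3 were not called. The carnitine-acylcarnitine carrier Slc25a20 went from 90.1 ± 19.6 FPKM (SD, n = 4) to 36.1 ± 3.51 (n = 6; log2 fold change -1.27, SE 0.15, limma adjusted p = 1.49e-06). Tmlhe, the first enzyme of carnitine synthesis, had a log2 fold change of -0.97 and Aldh9a1, a later one, of -0.88 (0.11 under TPM), while Cpt1c, the brain isoform, had a log2 fold change of -0.19 (adjusted p = 0.186). Slc22a16 and Bbox1 did not pass the filter. The median of these 6 was -0.53, which turned to 0.36 under TPM, where 3 were called higher and 1 lower.

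Short- and medium-chain synthetase genes fell, all 6 of the 6 tested (median log2 fold change -1.08), though under TPM 3 were called lower and none higher (median -0.33). The mitochondrial acetate activator Acss1 went from 14.0 ± 1.67 FPKM (SD, n = 4) to 4.0 ± 0.829 (n = 6) and its cytosolic relative Acss2 from 30.0 ± 5.35 to 11.9 ± 1.09. Acsf3, which activates malonate, had a log2 fold change of -1.26 and Acsm5, a mitochondrial medium-chain synthetase, of -0.88. Acsm1, Acsm2, Acsm3 and Acsm4 did not pass the filter. Of 6 other long-chain synthetase genes tested, 3 rose, 1 fell and 2 were not called (median 0.56), and under TPM all 6 were called higher (median 1.47). Acsl5 went from 2.56 ± 0.292 to 5.80 ± 1.05 FPKM, and Slc27a3 and Slc27a6 rose by 1.15 and 1.08 on the log2 scale, whereas Slc27a1, the fatty acid transporter and synthetase of muscle, fell by 0.51 and had 0.41 under TPM. Acsbg1, Acsbg2, Slc27a2 and Slc27a5 did not pass the filter.

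Of 14 tested genes around malonyl-CoA, 7 rose and 5 fell (median 0.15), and under TPM 10 were called higher and 1 lower (median 1.12). Prkaa2, the muscle catalytic subunit of AMP-activated kinase, which inhibits Acacb, fell the furthest, from 36.2 ± 13.7 FPKM (SD, n = 4) to 1.92 ± 0.991 (n = 6; log2 fold change -3.65, SE 0.30, limma adjusted p = 2.20e-08). Its regulatory partner Prkab1 fell by 0.80, which turned to 0.16 under TPM. Fasn, the fatty acid synthase, and Slc25a1, the citrate carrier, rose by 1.14 and 1.08 from levels of 0.661 and 1.01 FPKM. Among 8 acyl-CoA handling genes 1 rose and 5 fell (median -0.45), whereas under TPM 4 were called higher and 2 lower (median 0.46). Their log2 fold changes as deposited included the thioesterases Acot13 at -1.77, Acot2 at -1.38 and Acot7 at -0.69 (0.20 under TPM) and Acot9 at 0.76. Acot1, which is close to Acot2 in sequence, did not pass the filter.

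Of 18 tested transcriptional regulators of fat oxidation 13 fell, 1 rose and 4 were not called (median log2 fold change -1.02). Under TPM 6 were called lower and 5 higher (median -0.09). Ppara, the fatty acid receptor of oxidative tissues, went from 5.75 ± 0.915 FPKM (SD, n = 4) to 1.2 ± 0.283 (n = 6; log2 fold change -1.62, SE 0.11, limma adjusted p = 3.54e-09). Its coactivator Ppargc1a had -1.77, its partner Rxra -1.64 and the estrogen-related receptor Esrrg -1.48. Of 18 tested mitochondrial reference genes 17 fell and 1 was not called, with a median of -1.44, and under TPM 12 were called lower and 2 higher (median -0.43). The citrate synthase gene Cs had -1.29, Vdac1 -1.62, Ndufs1 -1.64 and Sdha -1.77. The 10 shuttle genes had a median of -1.52 as deposited and -0.56 under TPM, and no difference between the lists was tested. The share of reads from mitochondrial DNA also moved with genotype, from 19.7 to 25.1% in WT_ND to 11.9 to 14.0% in DMD_ND, and its part in these changes was not tested.

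The next question was whether the shuttle genes differed between mutant muscle on MCTKD and on normal diet (DMD_KD against DMD_ND). None of the 10 genes passed limma's test over all genes, in which 1 of 12119 genes was called (0.00825%). At an unadjusted p under 0.05, 6 of the 10 were higher on the diet, beside 6.65% of all tested genes, and none was lower. Their median log2 fold change was 0.36 against -0.01 over all tested genes. Those 6 were Mlycd, Crat, Cpt2, Acacb, Cpt1b and Acsl1. That count is for the deposited scaling. Under TPM their log2 fold changes were 0.48, 0.40, 0.29, 0.13, 0.09 and -0.00401 (SE 0.13, 0.09, 0.08, 0.15, 0.09 and 0.13). Crat and Cpt2 had every DMD_KD library above every DMD_ND library, as did 0.842% of genes in that direction. Under TPM the median tested gene stood at -0.24 and that of the 10 genes at 0.10.

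Mlycd had the largest difference of the 10. It ranged from 18.6 through a median of 30.3 to 43.5 FPKM in DMD_KD against 15.0 to 19.2 in DMD_ND, so that 5 of the 6 DMD_KD libraries lay above all DMD_ND libraries and replicate 9 lay within them. The log2 fold change of Mlycd was 0.73 (SE 0.15, 95% interval 0.40 to 1.06, unadjusted p = 1.98e-04, limma adjusted p = 0.140), at the 99.7th percentile of all tested genes. Without DMD_KD replicate 9 it was 0.86 and passed (adjusted p = 0.0210), and without replicate 3 it was 0.63 (adjusted p = 0.155). Over the 25 alternatives its adjusted p ran from 0.0210 to 0.392.

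Crat stood at 86.3, with a median of 96.1, to 201 FPKM in DMD_KD against 51.3 to 78.0 in DMD_ND (log2 fold change 0.66, SE 0.19, 95% interval 0.25 to 1.07, limma adjusted p = 0.202). Its highest value came from replicate 3, and without that library the rest lay between 86.3 and 115 FPKM with a log2 fold change of 0.48 (adjusted p = 0.248). Cpt2 ranged from 25.7 through 28 to 45.5 FPKM against 16 to 22.5 (log2 fold change 0.55, SE 0.15, 95% interval 0.24 to 0.86, adjusted p = 0.156), and without replicate 3 from 25.7 to 30.8 with 0.43 (adjusted p = 0.228). Replicate 3 was the highest DMD_KD library for both genes, so leaving it out could not make the diets overlap. Under TPM the log2 fold change was 0.40 for Crat (limma adjusted p = 0.0913) and 0.29 for Cpt2 (adjusted p = 0.101). A fit with a weight per library, in which replicate 3 had 0.129, called Cpt2 higher (0.40, adjusted p = 0.0431).

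The remaining genes overlapped between diets. Acacb ranged from 12.4 through 16.1 to 19.9 FPKM on MCTKD against 9.60 to 14.7 (log2 fold change 0.37, 95% interval 0.11 to 0.64, limma adjusted p = 0.235). Cpt1b ranged from 68.3 through 83.8 to 113 against 54.1 to 72.8 (0.36, interval 0.07 to 0.64, adjusted p = 0.263), and Acsl1 from 40.0 through 47.3 to 55.7 against 35.0 to 42.9 (0.26, interval 0.04 to 0.48, adjusted p = 0.285). As deposited, Acsl1, Cpt1b and Acacb thus had intervals above 0 but none passed over all genes. Under TPM Cpt1b had 0.09 (SE 0.09) and Acacb 0.13 (SE 0.15). Without DMD_KD replicate 3, the highest DMD_KD library for Cpt1b, the deposited Cpt1b value was 0.27 (limma adjusted p = 0.397). Acsl6 ranged from 14.2 to 35.8 FPKM against 13.7 to 22.7 (0.37, interval -0.01 to 0.76, adjusted p = 0.362). Its log2 fold change was 0.11 under TPM and, as deposited, 0.27 without DMD_KD replicate 3, its highest DMD_KD library. Slc22a5 ranged from 5.76 to 7.77 against 5.62 to 6.95 (0.04, interval -0.19 to 0.27). As deposited, a diet difference of the size of its genotype difference (-0.89) thus lay outside the interval. That bound does not carry over to TPM, where the genotype difference was 0.02 and the diet difference -0.21 (SE 0.14). Cpt1a ranged from 2.31 to 4.91 against 2.09 to 4.08 (0.10, interval -0.21 to 0.42). Slc22a5, Cpt1a and Acsl1 had negative values under TPM (-0.21, -0.11 and -0.00401).

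Acsl3 was the 1 gene of the 10 with a negative log2 fold change on the diet. It ranged from 6.84 through 13.5 to 15.2 FPKM in DMD_KD against 11.5 to 17.4 (-0.27, interval -0.58 to 0.04, limma adjusted p = 0.387), and its lowest value, from replicate 3, lay at the wild-type level. Without that library the log2 fold change was -0.13. Within libraries, Acsl3 made up 7.52% (replicate 3) to 21.9% of the summed FPKM of the 3 synthetases in DMD_KD, beside 16.4 to 23.4% in DMD_ND. The log2 ratio of Acsl3 to Acsl1 was 0.53 lower on the diet (-0.53, exact permutation p = 0.0130, adjusted p = 0.0312 over 12 ratio tests). That call rests on single libraries. Without DMD_KD replicate 3 the difference was -0.38 (adjusted p = 0.0571), and it also missed the threshold without DMD_ND replicate 3, 6, 7 or 9 (adjusted p = 0.0519, 0.0675, 0.0563 and 0.0727).

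The balance of the malonyl-CoA pair leaned toward Mlycd on the diet. The ratio of Mlycd to Acacb FPKM was 2.30, 2.31, 1.90, 1.87, 1.43 and 1.78 in DMD_KD replicates 1, 3, 5, 7, 9 and 10, and between 1.08 and 1.79 in DMD_ND, with a mean of 1.93 ± 0.334 (SD, n = 6) against 1.5 ± 0.245 (n = 6). The log2 ratio of Acacb to Mlycd differed by -0.36 (exact permutation p = 0.0260), which did not pass after adjustment (adjusted p = 0.0519). Adjusted p ran from 0.0190, without DMD_KD replicate 9, to 0.156 over 19 alternatives, and passed also without DMD_ND replicate 5 (0.0433). The log2 ratios of Cpt1a to Cpt1b (-0.26, exact permutation p = 0.297) and of Acsl6 to Acsl1 (0.11, exact permutation p = 0.543) differed by less than the spread between DMD_KD libraries (SD 0.48 and 0.33).

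**Figure D4:**
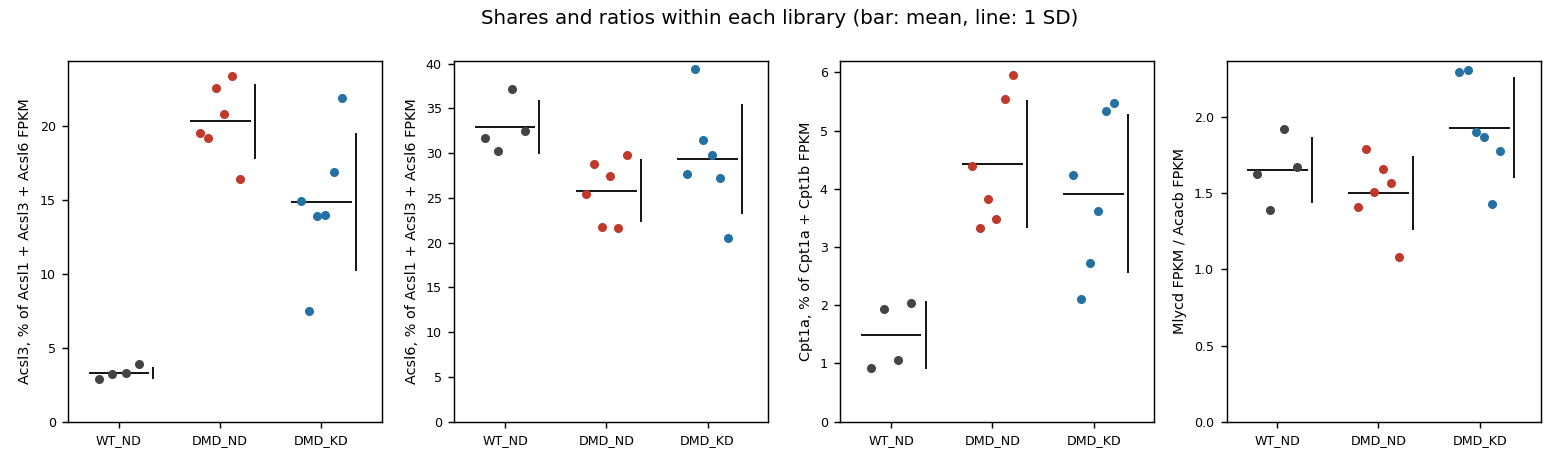
Within-library shares (percent of summed FPKM) and the Mlycd to Acacb ratio (vertical axes) by group, 1 point per library with mean and 1 SD. The Acsl3 share is 2.89 to 3.87% in WT_ND and 16.4 to 23.4% in DMD_ND, and the Mlycd to Acacb ratio reaches 2.31 in DMD_KD against at most 1.79 in DMD_ND.

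None of the tested genes in the 7 pathway lists was called for the diet, and 1 of 10 shuttle genes at most was under any alternative. All 6 tested carnitine genes and all 6 short- and medium-chain synthetase genes had positive log2 fold changes (medians 0.11 and 0.22, and -0.13 and 0.01 under TPM). Acss1 went from 4.0 ± 0.829 to 6.05 ± 1.2 FPKM (SD, n = 6 each, log2 fold change 0.49, limma adjusted p = 0.140) and Slc25a20 had 0.38 (adjusted p = 0.248). Acot2 had 0.44 (adjusted p = 0.140), Prkab2 0.49 (adjusted p = 0.310) and Ppara 0.27 (adjusted p = 0.264). Fasn (-0.36) and the orphan receptor Nr4a3 (-1.05, adjusted p = 0.140) had negative values. The median of the mitochondrial reference genes was 0.33, beside the 0.36 of the 10 shuttle genes (0.07 and 0.10 under TPM), with Cs at 0.36 and Sdha at 0.31. The share of reads from mitochondrial DNA was 14.4 to 17.0% in DMD_KD, above the 11.9 to 14.0% of DMD_ND. The myofibre markers had a median of 0.46 (0.19 under TPM), all 8 positive and none called, and their sum was 30017 to 95173 FPKM in DMD_KD. Fibroblast and progenitor markers summed to 1275 to 1856 FPKM, macrophage markers to 412 to 666 and adipocyte markers to 83.4 to 235, all overlapping DMD_ND. None was called, but all 10 fibroblast, 12 of 13 macrophage and all 7 tested adipocyte markers had negative log2 fold changes. Their medians were -0.34, -0.18 and -0.79, and -0.61, -0.45 and -1.18 under TPM. Of 7 endothelial markers 5 were positive and 2 negative (median 0.03). The part of these in the diet differences was not tested.

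The third comparison, DMD_KD against WT_ND, asks how far mutant muscle on the diet stood from wild type. It shares its libraries with the other comparisons, so its values are not independent of them. The same 8 genes were called lower, against 31.1% of all tested genes, and the same 2 higher, against 27.3%. The median log2 fold change was -0.97, beside -0.06 over all tested genes. For 7 of the 8 the DMD_KD libraries all lay below WT_ND, as did 17.3% of genes. Cpt1b was the exception, since replicate 3 at 113 FPKM reached above the lowest wild-type library at 111.

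Acsl1 (-1.47, SE 0.12, limma adjusted p = 2.16e-08) and Acsl6 (-1.45, SE 0.20, adjusted p = 1.43e-05) differed most from wild type, followed by Crat (-1.22), Cpt2 (-1.17), Acacb (-1.07), Mlycd (-0.87), Slc22a5 (-0.85) and Cpt1b (-0.71). Mlycd stood at -1.61 on normal diet and -0.87 on MCTKD against the same wild-type libraries, and Acsl1 at -1.73 and -1.47. Acsl3 was higher by 0.73 (SE 0.16, adjusted p = 0.00107), with replicate 3 within the wild-type range. Cpt1a was higher by 0.52 (SE 0.17, adjusted p = 0.0141), and lost its call without WT_ND replicate 1 (adjusted p = 0.0552). Under TPM, where the median gene stood at 0.56, 6930 of the 12119 tested genes were called higher and 573 lower. Of the 10 genes, 4 kept a lower call there (Acsl1, Acsl6, Cpt2 and Crat). Cpt1b was at 0.03, Slc22a5 at -0.19, Mlycd at -0.15 and Acacb at -0.36, none of which passed. Acsl3 at 1.46 and Cpt1a at 1.16 kept a higher call. The log2 ratio of Acsl3 to Acsl1 was 2.20 higher in DMD_KD than in WT_ND (exact permutation p = 0.00476, adjusted p = 0.0190) and that of Cpt1a to Cpt1b 1.22 higher (exact permutation p = 0.00952, adjusted p = 0.0286), the latter at 0.0519 without WT_ND replicate 1 or 4.

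The genes whose levels followed those of 3 shuttle genes most closely were found by Pearson's r of log2(FPKM + 1), a description only, since the 16 libraries share 3 groups and the genotype difference dominates. For Cpt1b they were the carnitine carrier Slc25a20 (0.982), the dienoyl-CoA isomerase Ech1 (0.980) and Cpt2 (0.979). For Mlycd they were Ech1 (0.974), the thiolase Acaa2 (0.965) and Rrp36 (0.965), and for Cpt1a the gene listed as NEWGENE_1306714 (0.917), Ppp1r12c (0.866) and Tmem268 (0.849). With group means removed, the closest were Asb12, Cep131 and Mast2 for Cpt1b (0.951, 0.945 and 0.943), Fhit, Tmem82 and Adcy2 for Mlycd (0.904, 0.875 and 0.874), and NEWGENE_1306714, AABR07029596.1 and Kif20a for Cpt1a (0.907, 0.810 and 0.807). These deviations are of deposited FPKM, so they still hold the scaling of each library, and they include DMD_KD replicate 3. The part of both in these correlations was not tested. Apart from NEWGENE_1306714, no gene stood among the closest 3 on both measures.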

How the data were processed

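The authors deposited 1 table of FPKM values for 31141 genes in 16 libraries, 1 column per library, with symbol, position and length per the file headers. Per the submitters' processing notes, the tools and build were HISAT2 2.0.5, featureCounts 1.5.0-p3 and mRatBN7.2. Whether counting used strand or multiply mapped reads is not stated in the sources used here, so overlapping genes and close copies are uncertain. Each value times gene length was a whole multiple of 1 read (100.0% within 0.05), which gave the reads per gene. No 2 libraries of a group agreed within counting noise (chi-square at least 11.7 times its degrees of freedom, genes of at least 20 reads).

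The test was limma 3.58.1 (R 4.3.3) on log2 of the deposited FPKM plus 1, with 1 fit of 3 group means over 16 libraries (trend, robust), genes of at least 1 FPKM in at least 4 libraries, with two-sided p-values under Benjamini-Hochberg adjustment. Ratios used exact two-sided permutation of group means. The fit was tried on simulated data. Members, lists and ratio pairs were chosen with earlier results of these data known. Named were all members, per pathway list up to 4 genes by smallest p for genotype and 2 for diet, and the 3 genes most like Cpt1a, Cpt1b and Mlycd. Of the listed genes, Slc22a4, Slc16a9 and Mid1ip1 among others matched no row and are not analysed here. Promoters are RefSeq's (GRCr8), matched by symbol. Nerve, smooth muscle, satellite cell, blood and slow-fibre marker lists were also fixed. Alternatives were pseudocounts of 0.1 and 0.5, other filters, TPM, fits of 2 groups, library weights, a replicate block, eBayes without trend and robust, and leaving out each library, and for ratios a difference of medians.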

Additional observations from a re-analysis of the deposited data

Results flagged for a closer look

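Of 42 sets of libraries examined (10 genes and 4 ratios in 3 groups), 2 held a library far from the rest of its group. Chance alone gives about 1 in 20, so 2 of 42 is about as many as chance gives. Both were DMD_KD replicate 3, so the 2 are not independent of each other. Its Crat level was 201 FPKM, against 86.3 to 115 in the rest of its group, and its Cpt2 level was 45.5 FPKM, against 25.7 to 30.8. The same library had the highest summed level of myofibre markers of its group (95173 FPKM, others at most 44964) and of mitochondrial reference genes (6909, others at most 4602), and the part of these in its Crat and Cpt2 levels was not tested. Both far values were found on the deposited scaling, in which this was the only DMD_KD library divided by less than its assigned reads. A scale per 1e6 assigned reads was added after seeing the data. On it, the Cpt2 level of this library was 81.5 reads, within the 70.0 to 82.6 of the others. Its Crat level was 527 against 352 to 423. The rule for far libraries was not applied on that scale for either gene. Its share of mitochondrial reads, 16.5%, lay within the 14.4 to 17.0% of the other DMD_KD libraries.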

How the results depend on the processing

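Of 249 alternative values in each comparison, those that kept their direction and side of the threshold numbered 238 for genotype on normal diet. They numbered 243 for diet, 243 for mutant on MCTKD against wild type, and 213 of 228 for the ratios. Leaving out a library of the group outside a comparison cannot change its log2 fold change or ratio difference, so those values kept their direction by construction. For the diet no shuttle gene was called with all 16 libraries, so keeping its side meant staying uncalled. DMD_ND against WT_ND: the count of shuttle genes called higher was 1 with no filter, at a mean of at least 5 FPKM (which leaves Cpt1a out), with library weights and with the replicate block, and 1 to 2 without single libraries. Genes called fell from 7967 to 4361 at a mean of at least 5 FPKM, where fewer genes are tested, and Slc22a5 was 0.02 under TPM. DMD_KD against DMD_ND: genes called numbered 2 in a fit of the 2 groups compared, 93 with library weights and 0 with the replicate block, and 1 to 7 without single libraries (7 without DMD_KD replicate 9, 2 without DMD_ND replicate 7). Shuttle genes called higher were 1 with library weights and 0 to 1 without single libraries. Under TPM, Acsl1 was -0.00401, Cpt1a -0.11 and Slc22a5 -0.21, and Slc22a5 ranged from -0.00325 (without DMD_KD replicate 3) to 0.07 without single libraries. DMD_KD against WT_ND: genes called fell from 7068 to 3950 at a mean of at least 5 FPKM, and shuttle genes called higher were 1 there and with the replicate block, and 1 to 2 without single libraries. Shuttle genes called lower were 4 under TPM, with Cpt1b at 0.03.

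Without single libraries, the Cpt1a to Cpt1b log2 ratio ranged from 1.06 to 1.37 (DMD_KD against WT_ND), Acacb to Mlycd from -0.44 to -0.27 and Acsl3 to Acsl1 from -0.64 to -0.38 (DMD_KD against DMD_ND). Acsl6 to Acsl1 ranged from -0.15 to 0.00390 (DMD_ND against WT_ND, 0.01 as a difference of medians) and from -0.08 to 0.12 (DMD_KD against WT_ND, reversed at -0.01, -0.03, -0.08 and -0.01). Where no cause is named, the cause was not tested.

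The labels do not say what a shared replicate number means, and not every pair was correlated: same-numbered libraries had correlations of deviations from -0.0151 to 0.0628 (2 pairs, DMD_ND and WT_ND, 3 of 4 libraries closest to their own number), 0.0163 to 0.230 (4 pairs, DMD_KD and DMD_ND, 2 of 8) and -0.656 to 0.407 (3 pairs, DMD_KD and WT_ND, 2 of 6). With the replicate block, 0 genes were called for the diet (1727 of all tested had an unadjusted p under 0.05 in the limma fit without it), and Cpt1a had 0.34 (limma adjusted p = 0.148) in DMD_ND and 0.45 (0.0521) in DMD_KD against WT_ND. Cpt1a rests on 69 to 447 reads per library, the least of the 10 genes.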

Other observations

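Further marker lists are set beside the 31.5% of all tested genes called higher and the 34.3% called lower in DMD_ND against WT_ND. Satellite cell and myoblast markers summed to 45.8 to 60.4 FPKM in WT_ND, 206 to 352 in DMD_ND and 158 to 250.3 in DMD_KD, with 6 of 8 called higher in DMD_ND than in WT_ND by limma. Schwann cell and nerve markers summed to 18.3 to 28.8, 37.9 to 81.6 and 28.8 to 46.6 FPKM, with 2 of 5 tested ones higher. Smooth muscle and pericyte markers had 4 of 6 higher. Of 7 slow-fibre markers 5 were lower and 1 higher as deposited (median log2 fold change -0.61). Under TPM 1 was called lower and 3 higher (median 0.40), where 8564 of the 12119 tested genes were called higher and 720 lower. The red blood cell gene Hba-a2 ranged from 15.7 to 164 FPKM in DMD_KD, beside 21.8 to 36.2 in DMD_ND and 42.5 to 108 in WT_ND.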
